A study of Schizosaccharomyces pombe with 12 samples.

Results

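The histone genes of fission yeast, Schizosaccharomyces pombe, were followed by RNA sequencing of total RNA from wild-type cells moved from ordinary water to heavy water. They were taken by gene symbol and number 10 of the 7015 features listed for each sample: hta1 and hta2 for histone H2A, htb1 for H2B, hht1, hht2 and hht3 for H3, hhf1, hhf2 and hhf3 for H4, and pht1 for the H2A variant H2A.Z. The wild-type cells, which carry no selection markers, were grown to exponential phase in the rich medium YES. Control cells (S0) stayed untreated in YES made with H2O, and the other groups were kept in YES made with 100% D2O, water whose hydrogen is deuterium, for 5 h (S5) or 24 h (S24). Each group holds 4 samples that the study's design text calls independent, with no account of how they were kept apart. No H2O culture of matching age was analysed here, so D2O cannot be told apart from time in culture or from the change of medium.

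Total counts ranged from 26775612 to 27166349 per sample. The 5 prototrophy genes ura4, leu1, ade6, his3 and lys1, which are often mutated in common laboratory strains, had counts in every group. Their summed level was 1146 to 1803 CPM (the usual count scaled to library depth, here corrected for library composition). Counts alone do not show that a gene is intact. Ribosomal RNA features held 2.84% of the counts in 24 h replicate 2 and 0.062% to 0.717% in the other samples. All 10 histone genes passed the filter on low counts. Calls of a rise or a fall rest on edgeR's quasi-likelihood test over 6683 features, with Benjamini-Hochberg adjusted p-values and a threshold of 0.05.

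Nucleosomes wrap DNA around an octamer of the core histones H2A, H2B, H3 and H4, and most of this protein is made in S phase, when the newly copied DNA has to be packaged. In fission yeast the H3 and H4 genes lie in divergent pairs (hht1 with hhf1, hht2 with hhf2, hht3 with hhf3), hta1 lies beside htb1 in the same way, and hta2 stands alone. Transcription of most core histone genes peaks in S phase through the GATA-type factor Ams2, which binds a short promoter element known as the AACCCT box, while the pair hht2 and hhf2 is known for transcription throughout the cell cycle. Pht1 replaces H2A in some nucleosomes outside S phase and is known for roles at gene starts and in chromosome segregation.

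The core histone genes share 5 promoter regions, which are shown because the pairs they separate moved in different ways. The sequences are those of the RefSeq assembly ASM294v3, to which all 10 genes matched by identifier; the deposited files name no genome build. Each spacer between the annotated starts of a pair is printed 5′ to 3′ in the direction of the H3 gene, or of hta1, and the 250 bases before the annotated start are printed for hta2 and pht1. Capitals mark AACCCT on either strand, which reads AGGGTT on the other strand.
hht1 and hhf1, chrI:4699600-4699731, plus strand: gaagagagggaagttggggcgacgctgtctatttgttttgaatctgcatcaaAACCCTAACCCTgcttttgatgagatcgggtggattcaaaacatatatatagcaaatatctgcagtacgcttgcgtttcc
hht2 and hhf2, chrII:1364985-1365118, plus strand: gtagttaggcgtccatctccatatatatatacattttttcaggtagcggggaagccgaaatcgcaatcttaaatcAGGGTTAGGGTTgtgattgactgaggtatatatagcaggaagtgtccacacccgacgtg
hht3 and hhf3, chrII:3529566-3529766, minus strand: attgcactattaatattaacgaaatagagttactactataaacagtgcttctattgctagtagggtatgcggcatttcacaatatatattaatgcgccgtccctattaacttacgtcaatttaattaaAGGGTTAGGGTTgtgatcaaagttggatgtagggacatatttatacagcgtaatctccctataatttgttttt
hta1 and htb1, chrIII:1412182-1412358, minus strand: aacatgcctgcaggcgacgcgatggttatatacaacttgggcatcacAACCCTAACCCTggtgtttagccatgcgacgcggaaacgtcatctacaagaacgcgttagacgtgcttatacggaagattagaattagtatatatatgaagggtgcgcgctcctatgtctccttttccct
hta2, chrI:4053319-4053568, minus strand: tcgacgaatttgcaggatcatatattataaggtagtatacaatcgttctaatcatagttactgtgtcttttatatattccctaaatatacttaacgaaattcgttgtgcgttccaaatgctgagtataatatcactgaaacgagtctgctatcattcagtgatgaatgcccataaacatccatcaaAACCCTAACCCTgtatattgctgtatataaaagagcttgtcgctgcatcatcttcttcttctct
pht1, chrII:1503445-1503694, minus strand: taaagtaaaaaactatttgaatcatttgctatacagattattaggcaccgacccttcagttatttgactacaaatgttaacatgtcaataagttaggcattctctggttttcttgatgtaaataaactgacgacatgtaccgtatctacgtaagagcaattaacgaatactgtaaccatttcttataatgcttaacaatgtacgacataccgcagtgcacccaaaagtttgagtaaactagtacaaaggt

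Every core histone region held the box as a direct repeat, with 2 copies of AACCCT back to back on one strand, and the pht1 region held no AACCCT. The 6 letters AACCCT occurred on either strand in 5.04% of windows of 134 bases and in 8.29% of windows of 250 bases before the starts of 5104 protein-coding genes. The repeat occurred in 20 of those genes (0.392%) within 250 bases, and 9 of them were the core histone genes. The repeat lay 47 bases before the annotated start of hht2 and 75 bases before that of hhf2, against 68 bases for hht1 and 52 for hhf1. It was found in the spacer of each divergent pair, and its presence did not separate the pairs that follow. The letters ACGCGT, the element of the G1/S factor MBF, were found in the hta1 and htb1 spacer only among these 6 regions, and occurred in 2.06% of windows of that length (177 bases). The repeat as a search term was chosen after these sequences had been read.

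The core histone transcripts as a whole were less abundant in D2O. Their summed level was 4855, 4115, 4418 and 4244 CPM in the controls, 2999, 3022, 3088 and 2795 CPM at 5 h and 3457, 3272, 3162 and 2894 CPM at 24 h. Every D2O sample lay below every control, and the D2O groups overlapped each other. The mean sum was 0.675 of the control at 5 h and 0.725 at 24 h. As a plain share of all counts, the core genes held 0.388% to 0.437% in the controls, 0.293% to 0.322% at 5 h and 0.31% to 0.35% at 24 h. RNA was taken from whole cultures, in which fewer cells expressing a histone gene, such as fewer cells in S phase, and less RNA per cell cannot be told apart.

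Gene by gene, 7 of the 10 histone genes fell and 1 rose at 5 h, and 7 fell and 3 rose at 24 h. From 5 h to 24 h, 5 rose (htb1, hht2, hhf2, hhf3 and pht1) and 2 fell (hht1 and hhf1), where 68.3% of all features were called (33.6% higher, 34.6% lower). Of all features tested, 76.4% were called at 5 h (39.1% higher, 37.3% lower) and 81.2% at 24 h (41.8% higher, 39.4% lower), so that 8 and 10 calls among 10 genes are close to the general rate, while the split by direction can be read against near-equal shares. The median log2 fold change of the 10 genes was -0.37 at 5 h and -0.39 at 24 h, beside 0.01 for all features at 5 h and 0.02 at 24 h. Both comparisons with control use the same 4 control samples. Groups without overlap were common: they were found for 69.3% of all features at 5 h against control, 76.3% at 24 h and 61.2% between the times. For the histone genes these shares were 80%, 100% and 60%. The counts of falls depend on scaling: by library size alone, which moved the median of all features to 0.21 at 5 h and 0.20 at 24 h, 5 genes were lower and 2 higher at 5 h, and 5 lower and 3 higher at 24 h. Under that scaling 3589 of all features were higher and 1555 lower at 5 h, and 3521 and 1940 at 24 h, against 2616 and 2492, and 2793 and 2636, in the test reported here.

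**Figure D1:**
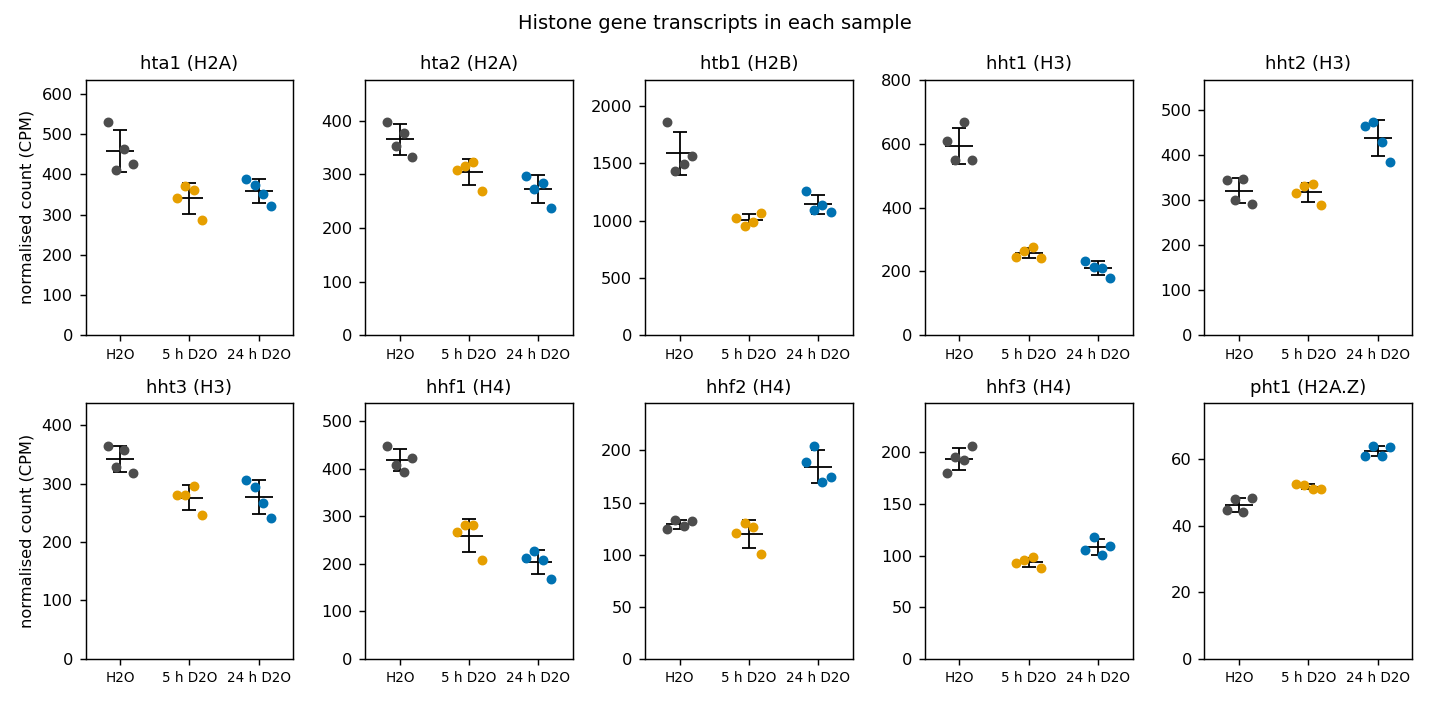
Normalised counts (CPM, linear axes from 0) of the 10 histone genes in H2O, at 5 h and at 24 h in D2O; points are samples, and bars are the mean and SD of 4. The hht1 and hhf1 panels step down from H2O, whereas hht2, hhf2 and pht1 have their highest samples at 24 h.

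Among the H3 genes, whose protein carries most of the marks read by silencing and transcription factors, the 3 copies moved apart. The gene hht1 was the most abundant H3 copy in the controls, with 608, 549.7, 668 and 549.2 CPM in the 4 samples. It stood at 245, 263, 277 and 243 CPM at 5 h and at 234, 215, 210.1 and 181 CPM at 24 h. The highest D2O sample, at 277 CPM, lay far below the lowest control. This was a log2 fold change of -1.21 at 5 h (SE 0.083, edgeR adjusted p = 6.58e-09) and -1.50 at 24 h (SE 0.084, edgeR adjusted p = 3.30e-10). It fell further from 5 h to 24 h, by 0.29 on the log2 scale (SE 0.082, edgeR adjusted p = 0.00571), and the samples of both times did not overlap.

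The gene hht2, which encodes the same histone, moved the other way at the later time. Its level was 345, 301.5, 347 and 292 CPM in the controls, 315, 331, 335 and 289 CPM at 5 h, and 465, 473, 430.2 and 385 CPM at 24 h. Controls and 5 h samples overlapped throughout, and every 24 h sample was above all the others. At 5 h the log2 fold change was -0.02 (SE 0.078, edgeR adjusted p = 0.849), with library-size scaling placing it at 0.19 instead (edgeR adjusted p = 0.0154). At 24 h it rose by 0.45 against control (SE 0.078, edgeR adjusted p = 8.75e-05) and by 0.46 against 5 h (SE 0.078, edgeR adjusted p = 0.000108). Of all features, 51.2% changed at least as much at 24 h against control, and 25.6% between the times.

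The third H3 gene, hht3, went from 318 to 365 CPM in the controls to 247 to 297 CPM at 5 h and 242 to 307 CPM at 24 h. Its samples in D2O lay below the controls without overlap, and the D2O groups covered the same range. The fall was a log2 fold change of -0.31 at 5 h (SE 0.078, edgeR adjusted p = 0.0023) and -0.30 at 24 h (SE 0.078, edgeR adjusted p = 0.00242). Neither passed the test with library-size scaling, where the values were -0.11 and -0.12 (edgeR adjusted p = 0.143 and 0.105). Between the times the difference was 0.01 (SE 0.078, edgeR adjusted p = 0.943).

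The H4 genes repeated the division of their H3 partners in the hht1 and hht2 pairs. The gene hhf1 had 448, 408, 393 and 422 CPM in the controls, 267, 281, 280.4 and 208 CPM at 5 h and 212, 226, 209 and 168 CPM at 24 h. Both D2O groups were below every control, and the 24 h samples overlapped the lowest sample at 5 h. The log2 fold changes were -0.69 at 5 h (SE 0.100, edgeR adjusted p = 1.86e-05) and -1.03 at 24 h (SE 0.10, edgeR adjusted p = 1.87e-07). The difference between the times was -0.35 (SE 0.100, edgeR adjusted p = 0.00683).

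The gene hhf2, partner of hht2 and the least abundant H4 copy in the controls, stood at 124, 133, 127 and 132 CPM there. At 5 h it had 121, 131, 127 and 101 CPM, and at 24 h 189, 204, 169.6 and 175 CPM. The groups in H2O and at 5 h overlapped, with the lowest value in 5 h replicate 4, and all 4 samples at 24 h were above every other sample. The log2 fold change was -0.11 at 5 h (SE 0.075, edgeR adjusted p = 0.197) and 0.52 at 24 h (SE 0.075, edgeR adjusted p = 1.41e-05), with 0.62 between the times (SE 0.075, edgeR adjusted p = 4.43e-06). With library-size scaling the uncalled value at 5 h was 0.09. Of all features, 46.45% changed at least as much as hhf2 at 24 h against control, and 15.4% between the times.

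The remaining H4 gene, hhf3, had 179.7, 195, 193 and 206 CPM in the controls, 92.5, 95.4, 98.4 and 88.1 CPM at 5 h and 106, 118, 100.4 and 109 CPM at 24 h. The 3 groups did not overlap: H2O was highest and 5 h lowest. Its log2 fold change was -1.05 at 5 h (SE 0.055, edgeR adjusted p = 3.57e-10) and -0.83 at 24 h (SE 0.055, edgeR adjusted p = 2.16e-09). It rose by 0.21 between 5 h and 24 h (SE 0.055, edgeR adjusted p = 0.00344). The whole annotated length of hhf3 is covered by a non-coding RNA on the opposite strand, hhf3-antisense-1, whose mean count was 4797 in the controls against 4786 for hhf3. The mean counts of hhf3-antisense-1 were 2751 at 5 h and 3152 at 24 h, again close to 2660 and 3042 for hhf3. Strandedness is not given in the sources used here, so reads from the gene and from its antisense partner cannot be told apart. This limit holds also for hta1, and for every sum, copy share, ratio and pair comparison here that uses hhf3 or hta1 counts.

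**Figure D2:**
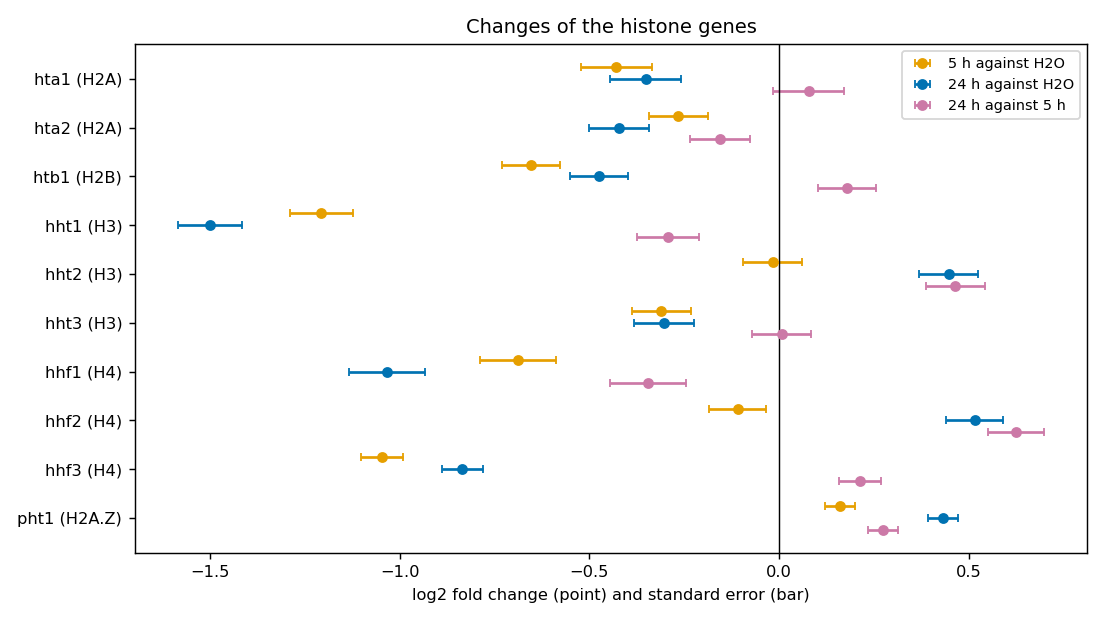
Log2 fold changes (points) with standard errors (bars) of the 10 histone genes for 5 h against H2O, 24 h against H2O and 24 h against 5 h. Both 24 h comparisons of hht2, hhf2 and pht1 lie to the right of 0, and hht1 and hhf1 lie to the left in all 3.

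H2A and H2B, which enter nucleosomes as dimers, fell at both times in all 3 of their genes. For H2A, hta1 had 529.7, 412, 464 and 426 CPM in the controls, 342, 371, 361 and 287 CPM at 5 h and 389.6, 373, 352 and 321 CPM at 24 h. The D2O samples all lay below the controls. Its log2 fold change was -0.43 at 5 h (SE 0.093, edgeR adjusted p = 0.000741) and -0.35 at 24 h (SE 0.093, edgeR adjusted p = 0.00295), the latter -0.17 and past no threshold under library-size scaling (edgeR adjusted p = 0.0736). The other H2A gene, hta2, went from 333 to 397 CPM in the controls to 269 to 324 CPM at 5 h and 238 to 297 CPM at 24 h, again without overlap with the controls. Its log2 fold changes were -0.27 (SE 0.079, edgeR adjusted p = 0.00695) and -0.42 (SE 0.079, edgeR adjusted p = 0.000176). At 5 h the hta2 value was -0.06 under library-size scaling (edgeR adjusted p = 0.413).

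The single H2B gene, htb1, was the most abundant histone transcript in every sample, also per length. It had 1859, 1433, 1492 and 1566 CPM in the controls, 1027, 954, 988 and 1065 CPM at 5 h and 1259, 1095, 1140 and 1075 CPM at 24 h. The control of replicate 1 was high, and all D2O samples were below all controls. The log2 fold change was -0.65 at 5 h (SE 0.076, edgeR adjusted p = 1.93e-06) and -0.47 at 24 h (SE 0.076, edgeR adjusted p = 3.96e-05). The difference of 0.18 between 5 h and 24 h was at the edge of the test (SE 0.076, edgeR adjusted p = 0.0486): its adjusted p ranged from 0.0115 to 0.155 over the alternatives, and it was lost in 7 of the 12 fits that left out 1 sample. Without a sample the adjusted p was 0.0595 (control replicate 4), 0.0695, 0.124 and 0.103 (5 h replicates 1, 2 and 3), or 0.155, 0.0516 and 0.0807 (24 h replicates 1, 2 and 3).

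The gene pht1 had the lowest level of the 10 genes and was the only one of them called higher at 5 h; at 24 h it rose beside hht2 and hhf2. Its level was 44.7, 47.9, 44.1 and 48.4 CPM in the controls, 52.5, 52.2, 50.98 and 51.1 CPM at 5 h and 61.1, 63.99, 61.04 and 63.7 CPM at 24 h. The 3 groups did not overlap and rose in the order H2O, 5 h, 24 h. The log2 fold change was 0.16 at 5 h (SE 0.040, edgeR adjusted p = 0.00209) and 0.43 at 24 h (SE 0.040, edgeR adjusted p = 9.37e-08). The later time exceeded the earlier by 0.27 (SE 0.039, edgeR adjusted p = 2.62e-05). Per kilobase of feature, the summed H2A level was 22.3 times that of pht1 in the controls (range 19.6 to 25.9 over 4 samples), 15.6 times at 5 h (13.6 to 16.8) and 12.6 times at 24 h (10.9 to 14.0). The ratio in every D2O sample was below that in every control. The centromeric H3 variant gene cnp1, which encodes CENP-A, changed by 0.15 at 5 h (SE 0.050, edgeR adjusted p = 0.0151) and 0.22 at 24 h (SE 0.050, edgeR adjusted p = 0.00112).

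Because the copies of H3 and H4 moved apart, the make-up of each histone by gene copy changed, a quantity that does not depend on how libraries are scaled. The gene hht2 supplied 26.2%, 25.6%, 25.3% and 25.2% of the H3 counts in the controls, 37.5%, 37.8%, 36.9% and 37.2% at 5 h and 46.3%, 48.1%, 47.5% and 47.7% at 24 h. The 3 groups were far apart compared with the spread inside each. The share rose by 11.8 percentage points after 5 h, by 21.8 after 24 h and by 10.05 from one time to the other. Every one of these tests reached the two-sided exact permutation p of 0.0286, the smallest that 4 against 4 samples can give (0.0367 after adjustment over 9 share tests). Over the same samples the hht1 share went from 47.2% ± 1.10 to 30.2% ± 0.87 and 22.7% ± 0.67 (SD, n = 4), so that the leading H3 copy in the controls became the least counted at 24 h. The hht3 share went from 27.3% ± 0.80 in H2O to 32.4% ± 0.76 after 5 h and 29.96% ± 0.46 after 24 h.

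For H4, hhf2 supplied 16.5%, 18.1%, 17.9% and 17.4% of the counts in the controls, 25.2%, 25.8%, 25.1% and 25.4% at 5 h and 37.3%, 37.2%, 35.4% and 38.6% at 24 h. Again no group overlapped another. The share rose by 7.89 percentage points after 5 h, by 19.7 after 24 h and by 11.8 from one time to the other. All 3 tests gave the exact permutation p of 0.0286 (adjusted, 0.0367). The hhf1 share went from 56.4% ± 2.11 in H2O to 54.7% ± 1.52 after 5 h and 40.96% ± 2.70 after 24 h (SD, n = 4), and the hhf3 share was 26.2% ± 1.52, 19.9% ± 1.54 and 21.9% ± 1.55. For H2A the copies kept closer to each other. The hta1 share went from 55.6% ± 1.43 in H2O to 52.8% ± 0.99 after 5 h and 56.8% ± 1.12 after 24 h. It differed between 5 h and 24 h by 4.09 percentage points (exact permutation p = 0.0286, adjusted p = 0.0367), while the differences from control were -2.81 at 5 h (exact permutation p = 0.0571, adjusted p = 0.0643) and 1.28 at 24 h (exact permutation p = 0.229, adjusted p = 0.229).

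**Figure D3:**
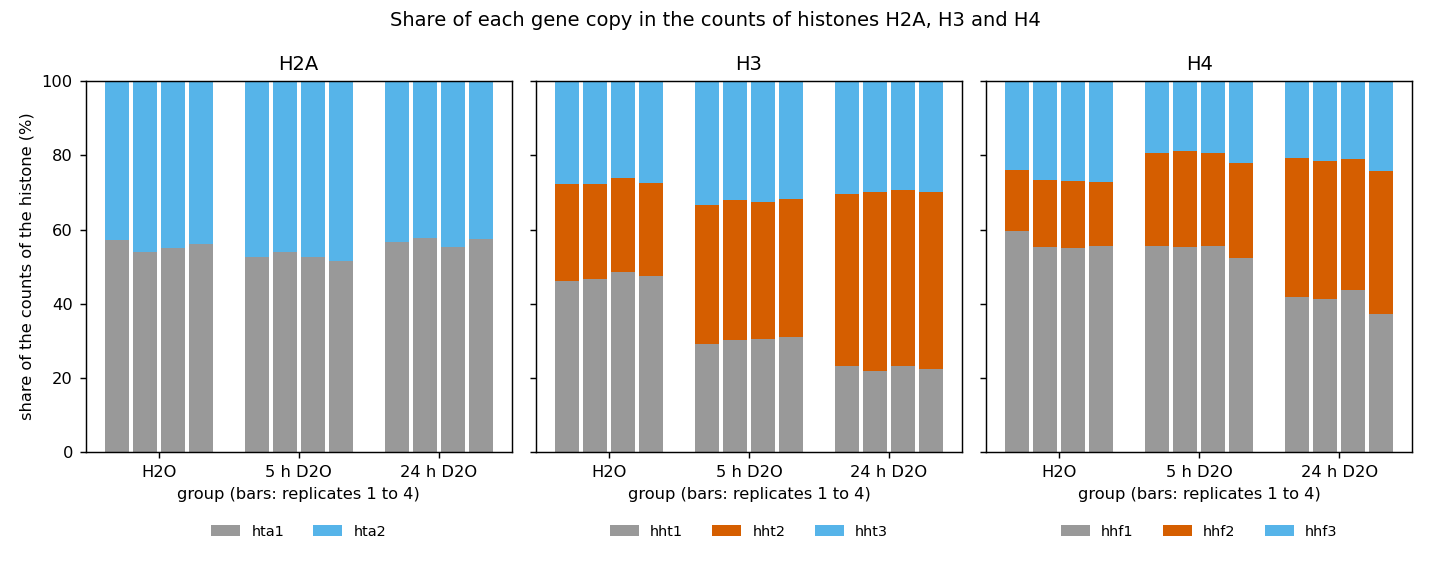
Share (%) of each gene copy in the summed counts of H2A, H3 and H4; each bar is 1 sample, 4 per group. The hht2 and hhf2 segments widen from H2O to 5 h and 24 h in every sample, and the hta1 share stays between 51.6% and 57.8%.

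The copies of a histone are similar in sequence, so the risk of reads being placed on the wrong copy was measured. All 10 genes have 1 coding exon. The coding sequences of hht1 and hht2 differ at 46 of 411 bases (88.8% identity), those of hht1 and hht3 at 30 (92.7%), and those of the H4 genes at 21 to 27 of 312. The longest run of identical coding bases between 2 copies was 54, between hhf2 and hhf3. Of the windows of 50 bases in each annotated gene, none occurred elsewhere in the genome for 8 of the 10 genes, and 6 did for hhf2 (0.803%) and for hhf3 (1.05%). No window of 100 bases did. The read length is not given in the sources used here, and the part of misplaced reads in the copy shares was not tested.

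Within divergent pairs the partners moved in the same direction at 24 h but not always by the same amount. In the pair hht1 and hhf1, whose starts lie 132 bases apart, the log2 fold changes were -1.21 and -0.69 at 5 h and -1.50 and -1.03 at 24 h. In hht2 and hhf2, 134 bases apart, they were -0.02 and -0.11 at 5 h and 0.45 and 0.52 at 24 h. In hta1 and htb1, 177 bases apart, they were -0.43 and -0.65, then -0.35 and -0.47. The widest gap was in hht3 and hhf3, 201 bases apart, with -0.31 and -1.05 at 5 h and -0.30 and -0.83 at 24 h. The differences between partners were not tested. Other features that share bases with a member were sec5, which overlaps 258 bases (19.6%) of htb1 and changed by -0.28 and -0.16, and rav1, which overlaps 46 bases (6.01%) of hht3 and changed by 0.24 and 0.46. The non-coding RNA SPNCRNA.1432 overlaps 79 bases (9.93%) of hhf2 on the same strand and changed by 0.10 and 0.51. Its mean count was 151 in the controls and 244 at 24 h, against 3193 and 5170 for hhf2. As with hhf3, an antisense RNA covers hta1 in full and had a mean control count of 11340 against 11290.

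Per kilobase of feature, the order of levels in the controls was htb1 at 1229 ± 146 CPM, hht1 at 682 ± 65.0, hhf1 at 541 ± 30.2, hta1 at 428 ± 49.1, hht2 at 413 ± 36.8, hht3 at 399 ± 26.4, hta2 at 384 ± 29.5, hhf3 at 264 ± 14.9, hhf2 at 151 ± 4.70 and pht1 at 36.5 ± 1.75 (SD, n = 4). From hta1 to hta2 the sample ranges of neighbours overlapped, and the others did not overlap their neighbours. At 24 h hht2 was second, at 564 ± 51.5, and hht1 had gone to 241 ± 25.1, with samples overlapping those of hhf1 at 264 ± 32.2 and hhf2 at 216 ± 18.2. The summed H3 level per kilobase went from 1495 ± 124 in H2O to 1026 ± 66.8 after 5 h and 1128 ± 108 after 24 h. That of H4 was 956 ± 27, 604 ± 65.9 and 628 ± 51.9. The lengths are those in the deposited files and are not equal to those of the RefSeq annotation. Within groups the genes tended to deviate together: 5 h replicate 4 was the lowest of its group for 8 of the 10 genes and 24 h replicate 4 for 7 of the 10.

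The genes whose profile over the 12 samples was nearest to the mean of the 9 core histone genes were SPBC21C3.15c, spo15, arf1, hxk2 and SPBC3H7.04. Their root mean square difference from it, in log2 CPM centred on each gene's mean, was 0.055 to 0.067. The core histone genes themselves lay 0.074 (hta1) to 0.444 (hht1) from that mean, which averages genes that moved apart. The genes named were thus nearer to it than any histone gene was. Nearest to pht1 were sea2, mad1 and omh3, at 0.033 to 0.049. For the pairs taken separately, which was decided after their values had been seen, gyp1 was nearest to hht2 and hhf2 (0.069) and mrt4 to hht1 and hhf1 (0.058). These likenesses are descriptions over samples that share 3 group levels. Of the 11 other genes with the direct AACCCT repeat within 250 bases of the start, 3 rose and 6 fell at 5 h, and 3 rose and 7 fell at 24 h. Over all features, 76.4% were called at 5 h and 81.2% at 24 h. Picked from the 11 genes after their values were seen are the Hsp70 genes ssa1 (log2 fold change 2.84 at 5 h and 2.52 at 24 h) and ssa2 (0.42 and -0.43). Picked likewise was tbp1, which encodes the TATA-binding protein (-0.02 and 0.46). Genes of the 11 that fell at both times include erg1 (-1.56 and -1.07), tif51 (-0.79 and -0.88), eft201 (-0.61 and -0.92) and spi1 (-0.58 and -0.96).

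Genes that act on histones were set beside them, from lists chosen with earlier results of these data known. The counts of these and all later lists stand beside the shares over all features. Of all features, 76.4% were called at 5 h (39.1% higher, 37.3% lower) and 81.2% at 24 h (41.8% higher, 39.4% lower). Of 8 genes known to regulate histone transcription, 3 rose and 0 fell at 5 h, and 6 rose and 2 fell at 24 h, with medians of 0.05 and 0.37. The activator gene ams2 went from 86.3 ± 2.96 CPM in the controls to 119.5 ± 3.73 at 5 h and 125 ± 3.72 at 24 h (SD, n = 4), log2 fold changes of 0.47 and 0.53 (SE 0.036 each, edgeR adjusted p = 2.37e-08 and 3.42e-09). For teb1, whose Myb-type protein binds AGGGTT repeats at histone promoters, they were 0.52 and 0.91. Of the HIRA complex, a histone chaperone that represses core histone genes outside S phase, hip3, hip4 and slm9, named after their values were seen, rose at 24 h by 0.36, 0.47 and 0.37, and hip1 fell by 0.18. The replication kinase gene hsk1 fell by 0.17 at 24 h (edgeR adjusted p = 0.0104).

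Of 14 histone chaperone genes, 1 rose and 8 fell at 5 h, and 4 rose and 8 fell at 24 h, with medians of -0.19 and -0.31. The falls included nap1, the H2A-H2B chaperone, at -0.56 and -0.68. At 24 h they also included pcf2, a subunit of the replication-coupled H3-H4 chaperone CAF-1, at -0.64. The CAF-1 genes did not move together at 24 h: pcf1 changed by 0.12 (edgeR adjusted p = 0.0483) and pcf3 by -0.42. The CENP-A chaperone gene scm3 rose by 0.49 and 0.78. Of 14 genes for H2A.Z exchange, 3 rose and 9 fell at 5 h and 3 rose and 7 fell at 24 h; rvb2 fell by 0.58 and 0.62 and swc3 rose by 0.59 and 0.66, beside the rise of pht1. Of 20 histone-modifying enzyme genes, 7 rose and 10 fell at either time. Among them rtt109, which encodes an acetyltransferase of newly made H3, fell by 0.73 and 1.00. The gene gcn5 of the SAGA complex fell by 0.53 and 0.80, and the H3 methyltransferase gene clr4 rose by 0.32 and 0.60. Other genes of these classes went the other way: the acetyltransferase gene mst2 changed by 0.47 and 0.47, and the methyltransferase gene set1 by -0.48 and -0.28. The largest rise of the list at 24 h was that of lsd2 (0.77).

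Lists of genes known for other cell cycle stages had members that changed in both directions. Of 16 G1/S genes, 6 rose and 5 fell at each time, with medians of -0.01 and 0.06, and their summed level was 2209 to 2304 CPM in the controls, 2077 to 2369 at 5 h and 2278 to 2440 at 24 h. The list contains cig2, an S-phase cyclin gene (0.53 and 0.85), and mik1, a mitotic inhibitor gene (-0.67 and -1.09). Of 20 M/G1 genes, 9 rose and 9 fell at each time, with medians of 0.08 and -0.08 and summed levels of 3882 to 4194, 3039 to 3362 and 2779 to 3044 CPM. The list holds adg1, which fell by 1.77 and 2.28, and ark1, an Aurora kinase gene, which rose by 0.60 and 0.93. Of 10 mating and meiosis genes, 3 rose and 5 fell at 5 h and 3 rose and 7 fell at 24 h, with summed levels of 739 to 807, 513 to 566 and 798 to 850.0 CPM; none of these lists had a gene at 0 in any group. Of the 5 prototrophy genes, 1 rose and 2 fell at 5 h, and 0 rose and 3 fell at 24 h. The part of the cell cycle distribution in the histone changes was not tested.

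**Figure D4:**
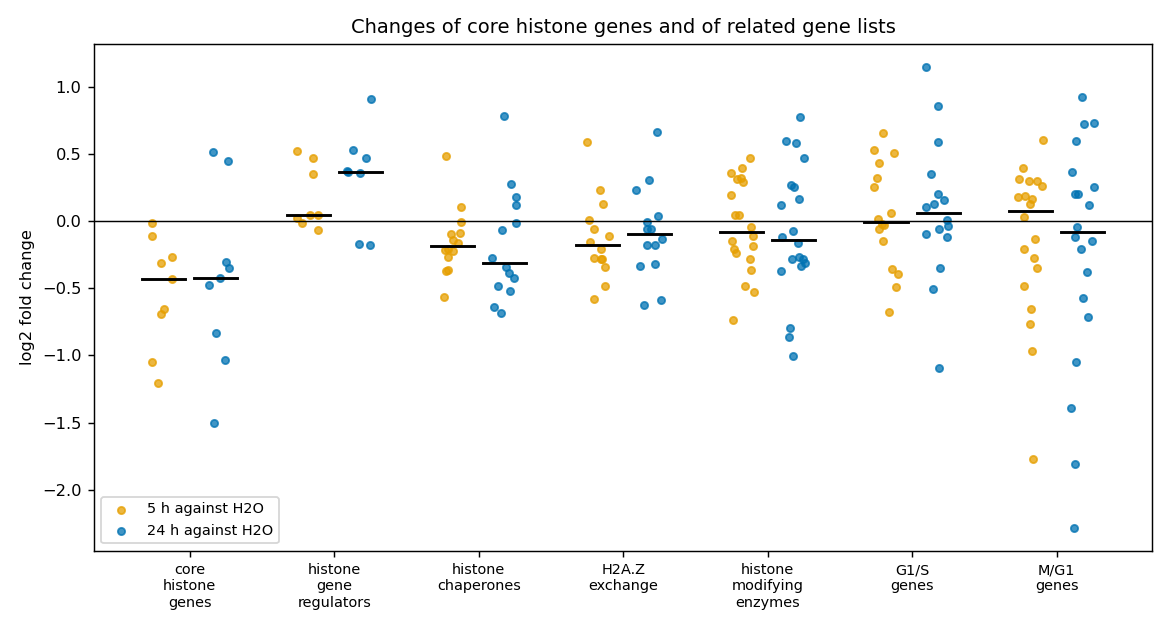
Log2 fold changes of the 9 core histone genes and of 6 lists of related genes, 5 h and 24 h against H2O; each point is a gene and each bar the median of its list. The core histone medians are -0.43 at 5 h and -0.42 at 24 h, and the G1/S medians are -0.01 and 0.06.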

How the data were processed

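Total RNA of 12 samples was purified with hot phenol, per the labels, and 1 table per sample was deposited. The reads were aligned with BWA 0.7.12, per the submitters' processing notes. The counting program, genome build, annotation, strandedness, read length and rRNA removal are not given in the sources used here. The authors deposited a count column (whole reads per feature, not normalised), the feature length and an RPKM column. The deposited RPKM values were recomputed from count, length and column total, with a largest relative difference of 4.96e-06.

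The counts were tested with edgeR 4.0.16 (limma 3.58.1, R 4.3.3): glmQLFTest in 1 model of the 12 samples with group as the only term, TMM scaling (factors 0.879 to 0.944 in controls, 1.01 to 1.07 in D2O) and filterByExpr with a minimum of 10 counts, which left 6683 features and 332 untested. Standard errors were derived from the fold change and the F statistic. The procedure was tested on simulated data. Replicates were not duplicates: their chi-square per degree of freedom was at least 8.32. It was 111 to 126 between 24 h replicate 2 and the rest of its group, which differed among themselves by 10.8 to 21.6. The largest value in the other groups was 47.1, between control replicates 3 and 4. Standard errors and edgeR p-values rest on the spread between samples of the same group, estimated jointly for all 12 samples and not group by group. The common biological coefficient of variation over all features was 8.47%. PCR copies were not told apart. For copy shares, two-sided exact permutation tests were run in SciPy 1.17.1. They covered 1 copy per histone (hta1, hht2 and hhf2), with no stated rule for that choice, and the other copies were not tested. The shares use the same counts as the edgeR tests, so they are not separate support. Features were matched by identifier to RefSeq ASM294v3 (6845 of 7015), and cia1 was taken as asf1.

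The members and lists were chosen with earlier results of these data known. Named were all members, the 2 largest called rises and falls per list and time (mean log2 CPM 3 or more, of which a selection is printed), the nearest profiles and overlapping neighbours. The alternatives were median-of-ratios and library-size scaling, no filter, DESeq2 1.42.0, a replicate block, only the groups compared, protein-coding features only, and leaving out each sample.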

Additional observations from a re-analysis of the deposited data

Results flagged for a closer look

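Levels differed between the samples taken at 5 h and at 24 h for 7 histone genes, by the direct edgeR comparison. The log2 differences were 0.62 for hhf2, 0.46 for hht2, 0.27 for pht1, 0.21 for hhf3, 0.18 for htb1, -0.29 for hht1 and -0.35 for hhf1. The share of hhf2 in H4 rose between the times by 11.8 percentage points, that of hht2 in H3 by 10.05 and that of hta1 in H2A by 4.09, by exact permutation tests.

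A single sample stood far from the other 3 of its group in 2 of 54 sets of 4 values examined, where chance gives about 1 in 20. The hhf1 share of H4 was 59.55% in control replicate 1 and 52.4% in 5 h replicate 4.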

How the results depend on the processing

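The counts of called features and of called histone genes stayed within 1.5 times the reported count under all 21 other settings and all 36 fits without 1 sample. There were 7 to 8 histone genes called at 5 h, 8 to 10 at 24 h and 6 to 8 between the times. With 10 genes in all, the histone counts could leave this wide bound only by falling. The bound ignores direction, and the split of all features by direction moved under library-size scaling. The protein-coding setting counts over fewer features. For each histone, the 3 alternatives and 24 values without 1 sample kept the direction of the copy share tested. Leaving out 1 sample cannot give an exact p below 0.0571, so those are values only. Of 210 values for single genes under other settings, 201 kept the call or its absence, 6 lost the call and 2 gained it. Those kept as called also kept their direction. Uncalled values could change sign, as hhf2 at 5 h did under library-size scaling (-0.11 to 0.09). The log2 fold change of hht2 at 5 h turned to 0.19 (0.1853) under library-size scaling, a scaling that moved the median of all features from 0.01 to 0.21. Of 360 values with 1 sample left out, 351 kept the call, and the exceptions were htb1 and hta2 between the times. For hta2, -0.16 at an adjusted p of 0.0926, the call was gained without 5 h replicate 4 (0.0255) or 24 h replicate 1 (0.0492). The labels do not say whether replicate numbers pair the samples, and with 4 numbers the check could not decide it. Same-numbered deviations correlated from -0.128 to 0.585 between 24 h and 5 h (mean 0.206). There 4 of 8 samples matched their own number best, against 1 of 8 for 5 h and 3 of 8 for 24 h against control. With the replicate block 8, 10 and 8 histone genes were called, against 8, 10 and 7, the added one being hta2 (adjusted p = 0.00994). Precision for pht1 rests on the fewest counts of the 10 genes, a mean of 1145 in the controls.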
